A study of Mus musculus with 9 samples.

Results

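Aminoacyl-tRNA synthetases are the enzymes that load each tRNA with its amino acid. The genes described here are 36 synthetase genes of the mouse, picked by symbol from the 23936 genes with a symbol in a deposited expression table: 20 whose products act mainly in the cytosol and 16, with names ending in 2, whose products act mainly in mitochondria. Levels were measured by RNA sequencing in 9 libraries of CD8+ OT-I T cells, which carry a transgenic receptor for a peptide of chicken ovalbumin. MLN-primed cells came from the mesenteric lymph nodes (MLN, titled oralmln), spleen-primed cells came from the spleen (titled ivspleen) and naive cells also came from the spleen, with 3 libraries each. All groups are OT-I cells, and the organ and the title words for oral and iv change together between the primed groups, so their parts cannot be told apart. The priming agent, the time after priming, the age of the mice, the gate used to isolate the cells and any pooling of animals are not stated in the sources used here. RNA was taken with a column kit (RNeasy Plus Micro) and sequenced from stranded mRNA libraries (TruSeq).

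A synthetase joins its amino acid, at the cost of ATP, to the tRNAs that read its codons, and the charged tRNA is then carried to the ribosome. Several cytosolic synthetases are held with scaffold proteins in a multi-synthetase complex, and most mitochondrial synthetases are encoded by nuclear genes of their own and imported. Naive T cells make little protein, and activated T cells grow and divide rapidly, with a large rise in protein synthesis. In mammalian cells many synthetase genes are known targets of ATF4, a transcription factor induced when amino acids are short or by growth signals, and MYC is known to bind promoters through CACGTG sites.

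Promoter sequences were matched by gene in RefSeq's promoters for the assembly GRCm38.p6 for 27 of the 36 genes, 13 cytosolic and 14 mitochondrial; Cars, Rars, Vars, Wars, Hars, Lars, Nars, Pars2 and Hars2 had no match. The windows run from 250 bases before an annotated start site of each gene, called the start here, to 50 bases after it, 300 bases in all. This site need not be the outer end of the gene. The Aars window lies wholly inside the Aars gene, which spans chr8:111027778-111055569. Most of the printed Yars stretch lies inside the Yars gene, which begins at 129189734. The C/EBP-ATF core TGATGNAA, a core that ATF4 is known to bind with C/EBP partners, was searched on both strands. It lay in a window of 5 of 13 cytosolic and 0 of 14 mitochondrial genes. This held for 4.51% of all 27025 genes with a window and 2.66% of the 8247 tested genes with a window. A gene with more than 1 window was counted once. The E-box CACGTG, which reads the same on both strands, lay in a window of 4 of 13 cytosolic genes (Aars, Farsb, Iars and Tars) and of 1 of 14 mitochondrial genes (Ears2). It lay in a window of 8.09% of all genes with a window and of 12.4% of the tested ones. The letters of the 2 motifs did not overlap in the windows printed here. The 5 cytosolic windows with the C/EBP-ATF core are shown because they are the ones that hold it, a choice made after the matches were seen. Each runs 5′ to 3′ on the gene's strand, 170 bases before the start and 30 bases from the start on, with both motifs in capitals on whichever strand they were found (TTGCATCA and TTTCATCA are the core read on the other strand).
Aars promoter, chr8:111033672-111033871, plus strand: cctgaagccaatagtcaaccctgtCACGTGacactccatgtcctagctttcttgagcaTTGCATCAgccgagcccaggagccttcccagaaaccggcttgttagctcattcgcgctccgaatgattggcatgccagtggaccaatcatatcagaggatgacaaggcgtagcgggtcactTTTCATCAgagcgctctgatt
Gars promoter, chr6:55037831-55038030, plus strand: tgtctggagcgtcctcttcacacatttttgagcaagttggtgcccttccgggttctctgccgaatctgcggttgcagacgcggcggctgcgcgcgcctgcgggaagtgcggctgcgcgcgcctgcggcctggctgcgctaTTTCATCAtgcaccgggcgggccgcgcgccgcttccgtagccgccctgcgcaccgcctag
Iars promoter, chr13:49681960-49682159, plus strand: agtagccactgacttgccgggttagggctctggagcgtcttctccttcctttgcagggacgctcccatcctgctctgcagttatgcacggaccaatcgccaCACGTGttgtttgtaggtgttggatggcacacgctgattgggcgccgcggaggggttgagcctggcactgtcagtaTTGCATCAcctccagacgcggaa
Tars promoter, chr15:11399629-11399828, minus strand: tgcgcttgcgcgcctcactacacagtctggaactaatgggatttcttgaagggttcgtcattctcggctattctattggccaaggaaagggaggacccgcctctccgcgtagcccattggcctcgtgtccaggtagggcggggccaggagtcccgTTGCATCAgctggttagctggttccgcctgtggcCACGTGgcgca
Yars promoter, chr4:129189733-129189932, plus strand: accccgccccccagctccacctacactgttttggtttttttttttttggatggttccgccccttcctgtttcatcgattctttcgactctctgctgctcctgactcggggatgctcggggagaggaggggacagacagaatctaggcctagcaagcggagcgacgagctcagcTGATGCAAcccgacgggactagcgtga

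Aars was the only gene of the 27 with 2 matches to the core, and its window also held the E-box. In the 250 bases before the start alone, 3 cytosolic windows held the core (Aars, Gars and Tars), so the single matches of Iars and Yars lay past the start site used. A match is a run of letters in a window and does not show that a factor binds there.

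Libraries summed to 613322 to 720410 FPKM (sequenced fragments relative to transcript length and to the size of the library) and held 9469 to 9667 genes at 1 FPKM or more. Read depth is unknown, so no counting error is given. Within groups, libraries differed in how levels ran with transcript length: MLN-primed 1 had the most negative slope, -0.0896 log2 per doubling of length, and spleen-primed 3 the most positive, 0.0787. The summed FPKM of 10 CD8 T cell identity genes was 2538 to 2619 in MLN-primed, 3514 to 3669 in spleen-primed and 4354 to 4671 in naive libraries, and none of these genes was at 0 in every library of a group. Cd3d, Cd3e, Cd3g, Cd247, Cd8a and Cd8b1 ran in the order of the sum, and Cd2 was low in MLN-primed libraries only. Zap70 (106 to 121 FPKM in primed, 76.8 to 78.1 in naive libraries) and Lat (338 to 407 and 282 to 303) ran the other way. Lck was highest in spleen-primed libraries. A myeloid list of 8 genes summed to 15.4 to 18.5 FPKM in MLN-primed, 44.6 to 48.3 in spleen-primed and 3.43 to 13.1 in naive libraries; most of it came from Itgam and Cd68 in primed libraries and from Lyz2, at 2.12, 5.5 and 9.75 FPKM, in naive ones, while Cd14 and Emr1 were at 0 in all MLN-primed libraries. A dendritic cell list of 7 genes summed to 34.6 to 46.5, 90.3 to 104 and 1.94 to 3.99 FPKM in MLN-primed, spleen-primed and naive libraries. Itgax held most of this in primed libraries, at 34.1 to 46.1 FPKM in MLN-primed and 89.7 to 103 in spleen-primed ones, and Flt3 and Clec9a were at 0 in all MLN-primed libraries. In naive libraries Itgax stood at 0.601 to 1.34, Flt3 at 0.352 to 0.737, Clec9a at 0.361 to 0.559 and Xcr1 at 0.345 to 0.728 FPKM. A B cell list of 7 genes summed to 11.9 to 15.8, 7.82 to 9.27 and 11.4 to 15 FPKM in the same order. The part of other cells in the synthetase values was not tested, and in bulk RNA fewer cells of a type and less RNA per cell cannot be told apart.

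All 36 genes reached 1 FPKM in 3 or more libraries, the filter for testing, and so entered the test with 10185 genes in all. Cytosolic synthetase transcripts were the more abundant class per length. In MLN-primed cells the cytosolic means ran from 19.7 FPKM for Cars, the cysteine enzyme, to 181 for Gars, the glycine enzyme, with a median of 57.5. In spleen-primed cells they ran from 12.3 for Cars to 157 for Gars, with a median of 44.7. In naive cells they ran from 5.47 for Cars to 57.9 FPKM for Kars, the lysine enzyme, with a median of 27.5. Cars was thus the lowest cytosolic gene in each group, and Kars and Gars were the 2 highest in both primed groups. The mitochondrial medians were 10.4, 10.2 and 6.26 FPKM in MLN-primed, spleen-primed and naive cells.

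**Figure D1:**
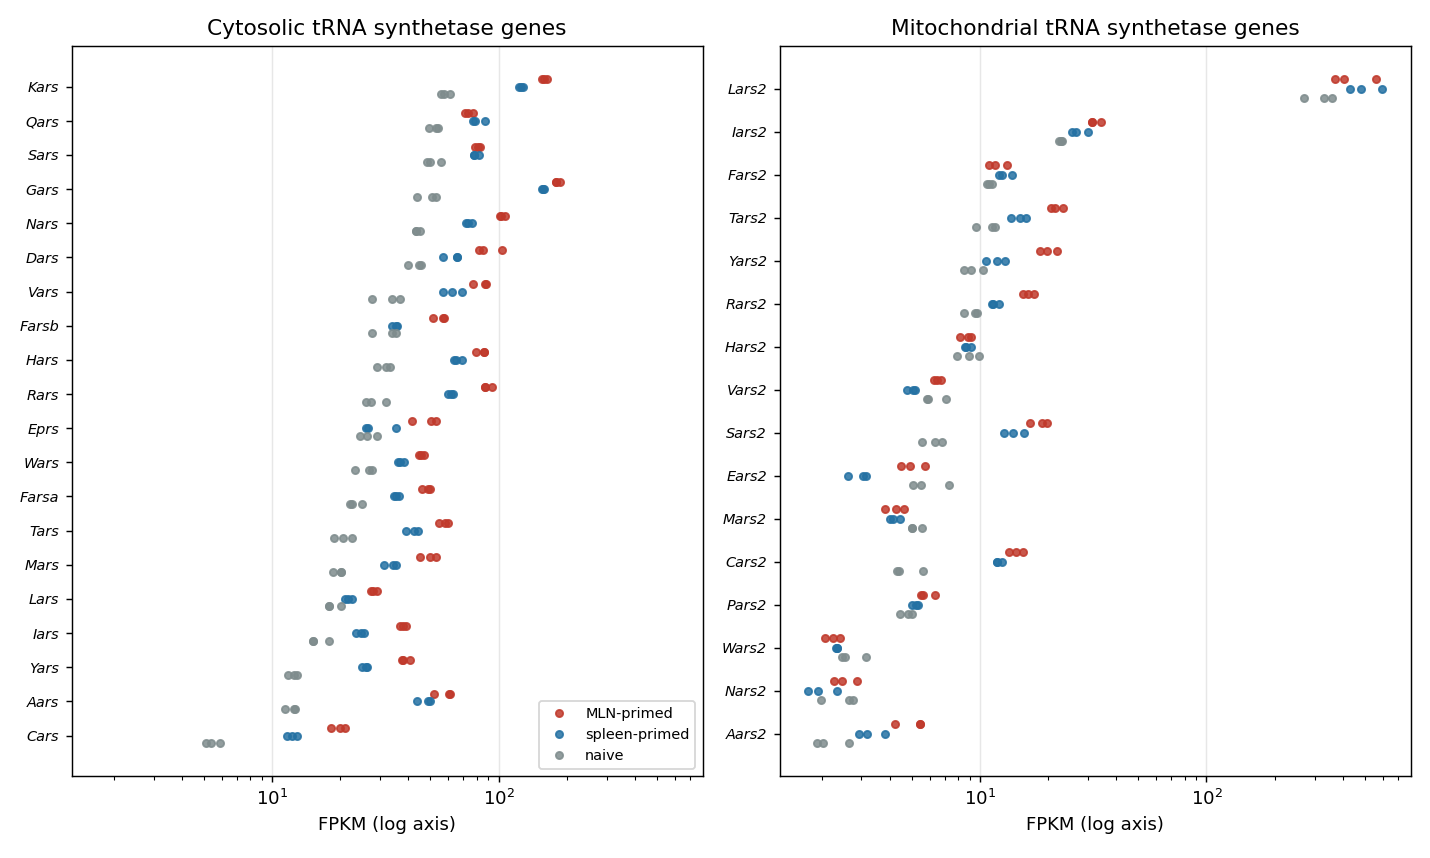
Level of each synthetase gene in every library, as FPKM on a log axis, for cytosolic and mitochondrial genes; each point is 1 library, coloured by group. Most cytosolic genes lie above most mitochondrial ones, and Lars2, at 269 to 594 FPKM, stands apart from the other mitochondrial genes.

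Lars2, which charges mitochondrial leucine tRNA, was far above the other mitochondrial genes, the next being the isoleucine enzyme Iars2 at 32.3, 27.4 and 22.7 FPKM in MLN-primed, spleen-primed and naive cells. Lars2 had 560, 403 and 368 FPKM in the MLN-primed, 594, 482 and 431 in the spleen-primed and 331, 359 and 269 in the naive libraries. All primed libraries were above all naive ones, and the primed groups overlapped. In each primed group Lars2 was highest in replicate 1, whose length slope was the most negative of its group. The annotated Lars2 transcripts share a stretch of 72 bases at 98.6% identity with Gm15564, an antisense transcript, and a stretch of 50 bases at 96.0% identity with AA474408; their part in the Lars2 level was not tested. Sums over the mitochondrial genes are therefore given without Lars2.

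The 20 cytosolic genes together held 1442, 1440 and 1417 FPKM in the MLN-primed libraries, 1096, 1123 and 1119 in the spleen-primed libraries and 607, 581 and 621 in the naive libraries. The 3 groups did not overlap. The sums averaged 1433 ± 13.9, 1113 ± 14.6 and 603 ± 20.3 FPKM in MLN-primed, spleen-primed and naive cells (SD, n = 3 each). The 15 mitochondrial genes other than Lars2 summed to 181, 173 and 173 FPKM in the MLN-primed, 136, 141 and 139 in the spleen-primed and 109, 111 and 118 in the naive libraries. These groups did not overlap either, with means of 176 ± 4.62, 139 ± 2.52 and 113 ± 4.73 FPKM (SD, n = 3 each).

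The cytosolic genes took 0.225% ± 0.0105 of all FPKM in MLN-primed cells, 0.172% ± 0.00917 in spleen-primed cells and 0.0893% ± 0.00755 in naive cells (SD, n = 3 each). The cytosolic sum was 8.17 ± 0.168 times the mitochondrial sum without Lars2 in MLN-primed cells, 8.04 ± 0.0416 times in spleen-primed cells and 5.36 ± 0.194 times in naive cells (SD, n = 3 each). On this ratio of levels, both primed groups lay above all naive libraries, and the primed groups overlapped.

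**Figure D2:**
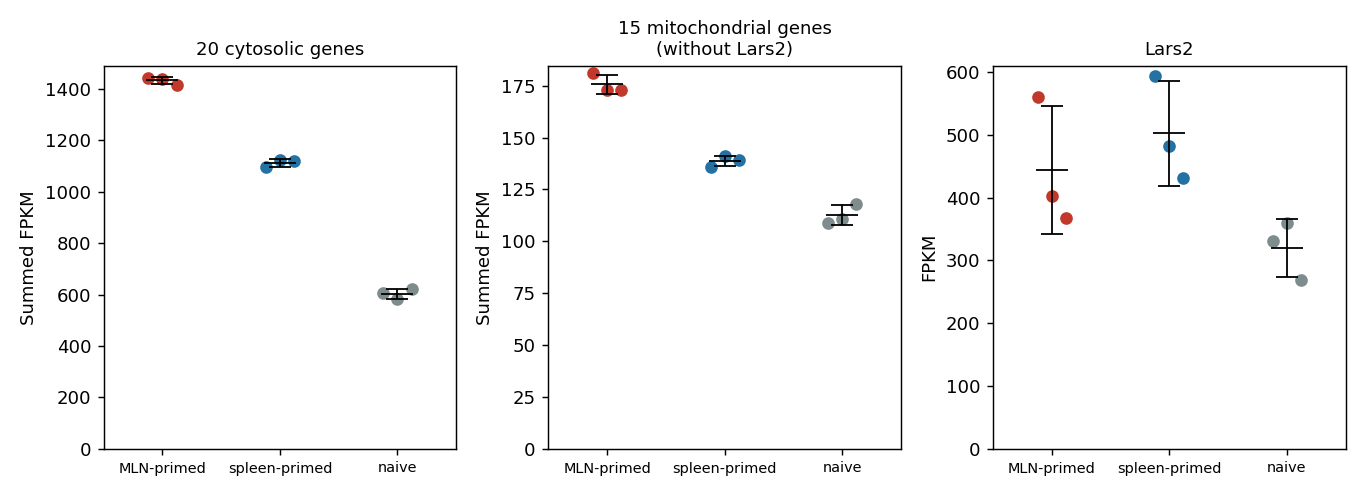
Summed FPKM of the 20 cytosolic genes and of the 15 mitochondrial genes other than Lars2, and FPKM of Lars2, in each library; points are libraries, and bars mark the mean and SD of 3. Both sums run MLN-primed, spleen-primed, naive from high to low with no overlap, while Lars2 overlaps between the primed groups (means 444 and 502 FPKM) and averages 320 FPKM in naive cells.

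The comparisons with naive cells ask how synthetase transcripts differ between naive cells and the cells primed in each setting. MLN-primed against naive also changes the organ, from spleen to mesenteric lymph nodes, so organ and priming cannot be told apart there. Only spleen-primed against naive stays within the spleen. All 20 cytosolic genes rose in MLN-primed cells (18 under quantile normalisation, where Qars stood at -0.02), against 45.5% of all genes tested that rose and 78.7% called in either direction. In spleen-primed cells 18 of 20 rose (13 under quantile normalisation, where Farsb fell by 0.25 on the log2 scale with a limma adjusted p of 0.0312), against 43.1% of all genes that rose and 75.8% called in either direction. The genes in spleen-primed cells that did not pass were Eprs, the fused glutamate and proline enzyme, and Farsb, a subunit of the phenylalanine enzyme, each 0.12 above naive on the log2(FPKM + 1) scale. Of the 16 mitochondrial genes 9 rose and 1 fell in MLN-primed cells, where 33.2% of all genes fell. With median-of-ratios scaling these counts were 7 and 2, and with quantile normalisation 7 and 0. In spleen-primed cells 8 of 16 rose and 3 fell, where 32.7% of all genes fell, and 5 rose and 2 fell with quantile normalisation. The 9 and 8 of 16 mitochondrial genes that rose are not far above the 45.5% and 43.1% of all genes that did. In 20 cytosolic and 9 mitochondrial genes all MLN-primed libraries lay above all naive ones, against 45.8% of all genes, and in 2 mitochondrial genes (Mars2 and Wars2) below them, against 34.6%. In 18 cytosolic and 10 mitochondrial genes all spleen-primed libraries lay above all naive ones, against 44.5% of all genes, and in 4 mitochondrial genes (Ears2, Mars2, Vars2 and Wars2) below them, against 33.7%. The median log2 change was 1.25 for cytosolic and 0.35 for mitochondrial genes in MLN-primed cells, against 0.15 for all genes, and 0.74, 0.23 and 0.10 for the same sets in spleen-primed cells.

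Changes come from limma on log2(FPKM + 1) over all 9 libraries, with Benjamini-Hochberg adjustment over all genes tested and a threshold of 0.05. Nothing in the labels ties the 3 libraries of a group to separate animals; p-values then reflect only how these libraries vary, a spread that may be technical. The median change of all genes against naive, 0.15 in MLN-primed and 0.10 in spleen-primed cells, moved to 0.02 and 0.02 with median-of-ratios scaling and to -0.04 and -0.06 with quantile normalisation, so small changes against naive depend on the scale. Both comparisons use the same naive libraries, so their values are set side by side only.

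**Figure D3:**
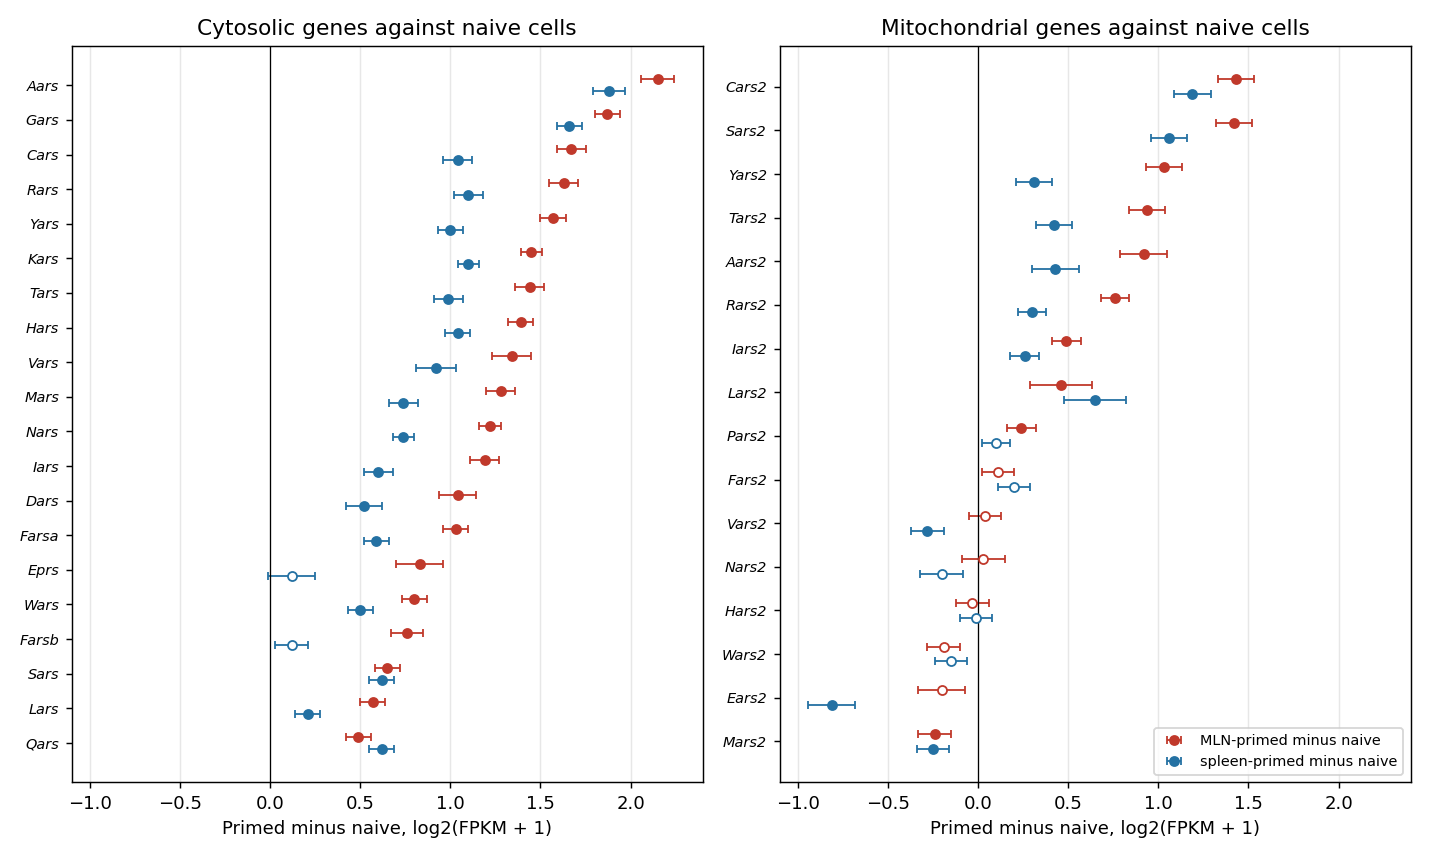
Log2(FPKM + 1) change against naive cells for each gene, with MLN-primed minus naive in red above and spleen-primed minus naive in blue below; bars are the standard error of the model, filled points passed an adjusted p of 0.05 and open points did not. Every cytosolic gene lies right of 0 in both comparisons (with quantile normalisation Qars turns in the first, and Eprs, Farsb and Lars in the second), while Ears2, Mars2 and Vars2 pass the test left of 0 in spleen-primed cells.

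Aars, the alanine enzyme, lay furthest above naive in both primed groups. It had 51.9, 60.2 and 60.9 FPKM in the MLN-primed, 43.8, 48.7 and 50 in the spleen-primed and 12.6, 11.4 and 12.5 in the naive libraries. The 3 groups did not overlap. The log2 change against naive was 2.15 ± 0.09 (SE) in MLN-primed cells (limma adjusted p = 7.13e-09) and 1.88 ± 0.09 in spleen-primed cells (limma adjusted p = 2.36e-08). Gars, which serves both the cytosol and mitochondria from a single gene, had 179, 186 and 179 FPKM in the MLN-primed, 157, 159 and 155 in the spleen-primed and 50.7, 43.8 and 52.7 in the naive libraries. Its groups did not overlap either, and it stood 1.87 ± 0.07 above naive in MLN-primed cells (limma adjusted p = 6.7e-09) and 1.66 ± 0.07 in spleen-primed cells (limma adjusted p = 1.97e-08). These are the 2 of the 36 genes with the largest changes in both comparisons.

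Rars, the arginine enzyme and a part of the multi-synthetase complex, had 93.8, 87.4 and 87.4 FPKM in the MLN-primed, 63.1, 61.6 and 60.1 in the spleen-primed and 31.9, 27.3 and 25.9 in the naive libraries. Kars, which like Gars serves both compartments from a single gene, had 163, 159 and 156 FPKM in the MLN-primed, 123, 126 and 128 in the spleen-primed and 57.2, 55.5 and 61.0 in the naive libraries. In both genes the 3 groups were fully apart. Rars rose by 1.63 ± 0.08 on the log2 scale in MLN-primed cells (limma adjusted p = 3.67e-08) and by 1.10 ± 0.08 in spleen-primed cells (limma adjusted p = 8.81e-07). Kars rose by 1.45 ± 0.06 (limma adjusted p = 8.42e-09) and 1.10 ± 0.06 (limma adjusted p = 7.83e-08) in MLN-primed and spleen-primed cells.

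Cars and the tyrosine enzyme Yars complete the 6 genes with the largest changes on the log2(FPKM + 1) scale in MLN-primed cells against naive. Cars had 18.2, 19.9 and 20.9 FPKM in the MLN-primed, 12.3, 11.7 and 12.9 in the spleen-primed and 5.13, 5.40 and 5.89 in the naive libraries. Yars had 40.7, 37.5 and 38.0 FPKM in the MLN-primed, 25.0, 26.0 and 26.3 in the spleen-primed and 12.5, 11.8 and 12.9 in the naive libraries. Neither gene's groups overlapped. The log2 change of Cars was 1.67 ± 0.08 in MLN-primed cells (limma adjusted p = 3.79e-08) and 1.04 ± 0.08 in spleen-primed cells (limma adjusted p = 1.6e-06). Yars changed by 1.57 ± 0.07 (limma adjusted p = 1.21e-08) and 1.0 ± 0.07 (limma adjusted p = 4.27e-07) in MLN-primed and spleen-primed cells. The other 14 cytosolic genes changed by 0.49 (Qars) to 1.44 (Tars) in MLN-primed cells, and the 16 cytosolic genes other than Aars, Gars, Rars and Kars by 0.12 to 1.04 in spleen-primed cells. The Lars call in spleen-primed cells, at 0.21 with an adjusted p of 0.0214, was lost without spleen-primed 2, spleen-primed 3, naive 1 or naive 2, with adjusted p of 0.0539 to 0.0686, and with median-of-ratios scaling it stood at 0.13 (adjusted p = 0.122).

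Among mitochondrial genes the cysteine and serine enzymes changed most against naive. Cars2 had 15.5, 13.4 and 14.5 FPKM in the MLN-primed, 11.9, 12.5 and 11.9 in the spleen-primed and 4.41, 5.61 and 4.30 in the naive libraries. Sars2 had 16.7, 18.7 and 19.7 FPKM in the MLN-primed, 12.8, 14.0 and 15.6 in the spleen-primed and 5.57, 6.36 and 6.78 in the naive libraries. In both genes every primed library was above every naive one, and the 2 primed groups did not overlap. Cars2 rose by 1.43 ± 0.10 in MLN-primed cells (limma adjusted p = 5.01e-07) and 1.19 ± 0.10 in spleen-primed cells (limma adjusted p = 2.46e-06). Sars2 rose by 1.42 ± 0.10 (limma adjusted p = 5.83e-07) and 1.06 ± 0.10 (limma adjusted p = 6.2e-06) in MLN-primed and spleen-primed cells. Yars2, Tars2, Aars2, Rars2, Iars2, Lars2 and Pars2 made up the rest of the 9 that rose in MLN-primed cells, from 1.03 for Yars2 down to 0.24 for Pars2, with Lars2 at -0.16 under quantile normalisation. The Pars2 call was lost without MLN-primed 1 or naive 2 (adjusted p of 0.093 and 0.0678), with median-of-ratios scaling (0.12, adjusted p = 0.251) and with only the libraries compared (adjusted p = 0.0515). The Lars2 call was lost without MLN-primed 1, naive 1 or naive 3 (adjusted p of 0.109, 0.0594 and 0.131), with median-of-ratios scaling (0.31, adjusted p = 0.176) and with no filter (adjusted p = 0.0697). In spleen-primed cells Lars2, Aars2, Tars2, Yars2, Rars2 and Iars2 rose by 0.65, 0.43, 0.42, 0.31, 0.30 and 0.26, with Lars2 at -0.02 and Iars2 at -0.03 under quantile normalisation. The Yars2 call there was lost without spleen-primed 1, spleen-primed 2 or naive 2, with adjusted p of 0.0753, 0.0512 and 0.0658. It was also lost with median-of-ratios scaling (0.23, adjusted p = 0.0896), with quantile normalisation (0.25, adjusted p = 0.0719) and with the length trend removed (0.13, adjusted p = 0.226).

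Ears2, the mitochondrial glutamate enzyme at chr7:122034162-122067094 of GRCm38, ran the other way in spleen-primed cells. It had 5.71, 4.47 and 4.89 FPKM in the MLN-primed, 3.05, 3.13 and 2.61 in the spleen-primed and 5.06, 5.48 and 7.30 in the naive libraries. Every spleen-primed library lay below every other library, while MLN-primed and naive libraries overlapped. Ears2 fell by 0.81 ± 0.13 on the log2 scale in spleen-primed cells against naive (SE, limma adjusted p = 0.000285), and the change in MLN-primed cells against naive was -0.20 ± 0.13 (limma adjusted p = 0.193). Ears2 rose by 0.61 ± 0.13 in MLN-primed against spleen-primed cells (limma adjusted p = 0.00678), which is the test of that difference.

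Mars2, the mitochondrial methionine enzyme, and Vars2, the mitochondrial valine enzyme, are the other genes that fell. Mars2 had 4.63, 4.28 and 3.81 FPKM in the MLN-primed, 4.46, 4.0 and 4.15 in the spleen-primed and 5.04, 5.53 and 5.04 in the naive libraries. All primed libraries lay below all naive ones. Mars2 fell by 0.24 ± 0.09 in MLN-primed cells (SE, limma adjusted p = 0.0282) and by 0.25 ± 0.09 in spleen-primed cells (limma adjusted p = 0.0254). The MLN-primed call was lost without MLN-primed 2, MLN-primed 3 or naive 2 (adjusted p of 0.0598, 0.118 and 0.0799) and with only the libraries compared (0.0529), and the spleen-primed call without spleen-primed 2, spleen-primed 3 or naive 2 (adjusted p of 0.0844, 0.0601 and 0.0727). With the trend on transcript length removed, Mars2 turned to 0.25 and 0.26, neither of which passed, and with quantile normalisation it stood at -0.22 and -0.20 without passing (adjusted p of 0.115 and 0.144).

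Vars2 had 6.27, 6.75 and 6.46 FPKM in the MLN-primed, 5.17, 4.76 and 5.06 in the spleen-primed and 5.86, 5.92 and 7.07 in the naive libraries. The spleen-primed libraries lay below all others. Vars2 fell by 0.28 ± 0.09 in spleen-primed cells against naive (SE, limma adjusted p = 0.0167), a call lost without spleen-primed 2 or naive 3 (adjusted p of 0.0608 and 0.0622). With the trend on transcript length removed, Vars2 stood at -0.10 there without passing (adjusted p = 0.312). The change in MLN-primed cells against naive was 0.04 ± 0.09 (limma adjusted p = 0.662). The histidine, tryptophan, asparagine and phenylalanine enzymes Hars2, Wars2, Nars2 and Fars2 passed in neither comparison, with changes between -0.20 and 0.20, and the proline enzyme Pars2 stood at 0.10 in spleen-primed cells without passing.

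Setting MLN-primed against spleen-primed cells asks how the 2 settings of priming differ. In MLN-primed cells 17 of 20 cytosolic and 8 of 16 mitochondrial genes rose, against 17.3% of all genes, and 0 of 36 fell, against 13.1% of all genes, with 30.4% of all genes called in either direction. The number of all genes called was 1760 higher and 1333 lower, and 1376 higher and 1608 lower with median-of-ratios scaling, under which the member counts were 17 cytosolic and 7 mitochondrial genes higher. The median log2 change was 0.44 for cytosolic, 0.24 for mitochondrial and 0.03 for all genes. In 18 cytosolic and 10 mitochondrial genes all MLN-primed libraries lay above all spleen-primed ones, against 25.1% of all genes. The reverse held for Qars, the glutamine enzyme, against 21.0% of all genes. The 8 mitochondrial calls became 4 without MLN-primed 2, 4 without MLN-primed 3, 5 without spleen-primed 1 and 4 without spleen-primed 2. The cytosolic count ran from 14 to 18 over the 9 fits that each left out 1 library.

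**Figure D4:**
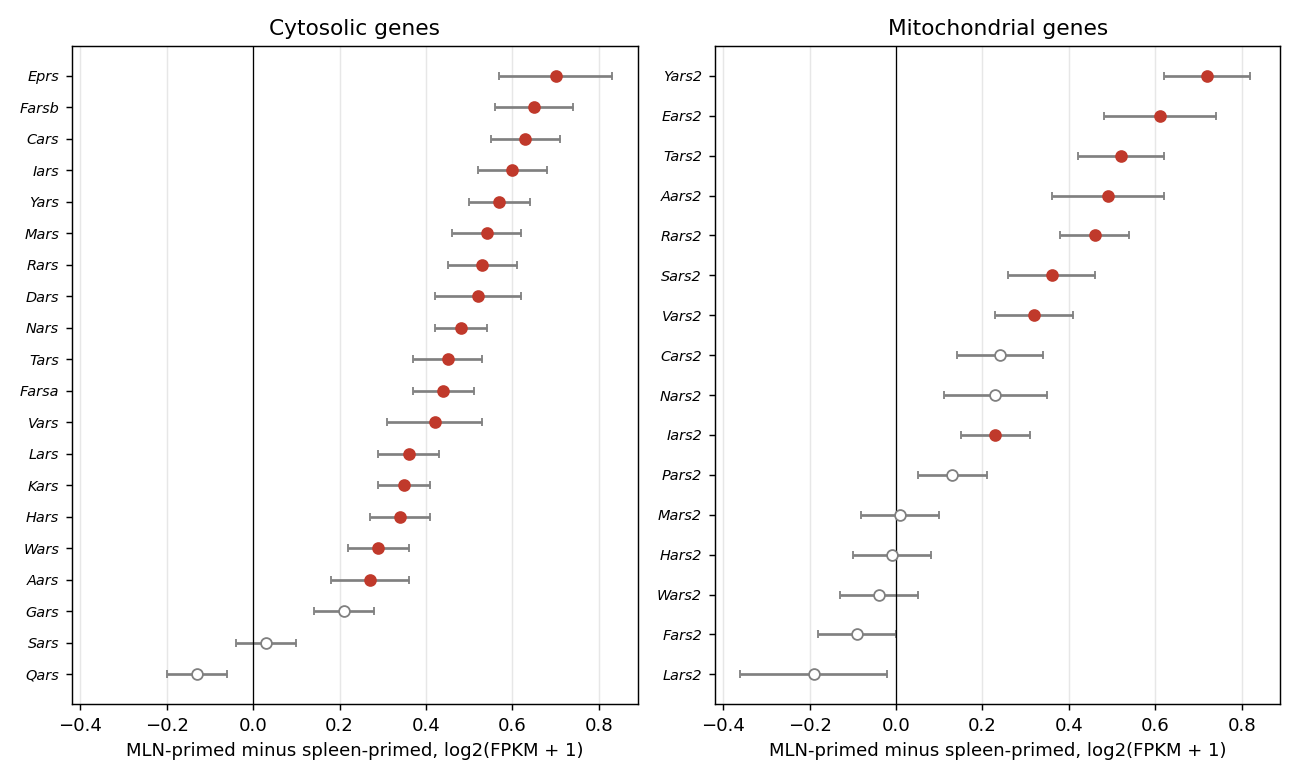
Log2(FPKM + 1) change in MLN-primed minus spleen-primed cells for each gene, with the standard error of the model; filled points passed an adjusted p of 0.05. All points that passed lie right of 0, from 0.23 for Iars2 to 0.72 for Yars2.

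Yars2, the mitochondrial tyrosine enzyme, had the largest change on the log2(FPKM + 1) scale, which shrinks changes of low genes; by the ratio of mean FPKM, Ears2 (1.71) and Yars2 (1.70) were about level. Yars2 had 22.0, 18.4 and 19.8 FPKM in the MLN-primed, 12.9, 11.9 and 10.6 in the spleen-primed and 9.16, 8.47 and 10.3 in the naive libraries. The groups did not overlap, and the log2 change between the primed groups was 0.72 ± 0.10 (SE, limma adjusted p = 0.00084). Eprs, a part of the multi-synthetase complex, had 41.5, 52.7 and 50.1 FPKM in the MLN-primed, 26.4, 26.0 and 35.4 in the spleen-primed and 26.3, 24.5 and 29.1 in the naive libraries. Its MLN-primed libraries lay above all others, while spleen-primed and naive libraries overlapped, and the change was 0.70 ± 0.13 (limma adjusted p = 0.00338). Farsb had 57.2, 57.0 and 51.4 FPKM in the MLN-primed, 35.7, 33.9 and 35.1 in the spleen-primed and 35.3, 27.5 and 34.0 in the naive libraries. The same order held, with a change of 0.65 ± 0.09 (limma adjusted p = 0.000941). For Eprs and Farsb the MLN-primed level was thus above both other groups, and those 2 groups overlapped; against naive, MLN-primed Eprs was 0.83 ± 0.13 and Farsb 0.76 ± 0.09 higher (limma adjusted p = 0.000224 and 3.42e-05).

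Cars, with the library values given above, was 0.63 ± 0.08 higher in MLN-primed cells than in spleen-primed ones (SE, limma adjusted p = 0.000563). Iars, the isoleucine enzyme of the complex, had 37.9, 39.0 and 36.6 FPKM in the MLN-primed, 24.8, 23.6 and 25.6 in the spleen-primed and 17.8, 15.2 and 15.1 in the naive libraries. The groups did not overlap, and Iars was 0.60 ± 0.08 higher in MLN-primed cells than in spleen-primed ones (limma adjusted p = 0.000521). Ears2 was the remaining gene among the 6 with the largest changes here.

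The 2 genes furthest above naive differed little between the primed groups. Aars was 0.27 ± 0.09 higher in MLN-primed cells than in spleen-primed ones (SE, limma adjusted p = 0.0355), a call lost without MLN-primed 2, MLN-primed 3, spleen-primed 1 or spleen-primed 2 (adjusted p of 0.0764 to 0.128), with quantile normalisation (0.074) and with only the libraries compared (0.0503). Gars was 0.21 ± 0.07 higher without passing (limma adjusted p = 0.0572), though it passed without naive 2 or naive 3 (adjusted p of 0.0164 and 0.0495). Qars had 76.8, 73.4 and 71.1 FPKM in the MLN-primed, 78.8, 86.8 and 77.2 in the spleen-primed and 49.1, 54.3 and 53.0 in the naive libraries, a change of -0.13 ± 0.07 between the primed groups (limma adjusted p = 0.19). The serine enzyme Sars had 83.1, 81.3 and 78.7 FPKM in the MLN-primed, 77.6, 82.1 and 77.6 in the spleen-primed and 49.7, 55.5 and 48.5 in the naive libraries. Its primed groups overlapped, with a change of 0.03 ± 0.07 (limma adjusted p = 0.743). Qars and Sars thus lay above naive in every primed library, without a call between the primed groups.

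In 16 of 20 cytosolic genes the groups lay in the order MLN-primed, spleen-primed, naive from high to low with no overlap between any 2 groups. The exceptions were Eprs, Farsb, Qars and Sars. The same order held in 8 of 16 mitochondrial genes, namely Aars2, Cars2, Iars2, Pars2, Rars2, Sars2, Tars2 and Yars2. The share of all genes tested in this order was not counted. For the single steps, 25.1% of all genes had MLN-primed wholly above spleen-primed libraries, and 44.5% spleen-primed wholly above naive ones. Gars, Cars2 and Pars2 were in this order without a call between the primed groups (limma adjusted p = 0.0572, 0.103 and 0.266). Pars2 also had none in spleen-primed against naive cells (limma adjusted p = 0.275). Of the mitochondrial calls between the primed groups, those of Aars2 and Sars2 were lost without MLN-primed 2, MLN-primed 3, spleen-primed 1 or spleen-primed 2 and that of Vars2 without MLN-primed 2, MLN-primed 3 or spleen-primed 2, with adjusted p of 0.0632 to 0.0979, while Ears2, Rars2, Tars2 and Yars2 kept theirs in each of the 9 fits that left out 1 library. The Iars2 call (0.23, adjusted p = 0.0431) was lost in 8 of those 9 fits, all but the fit without spleen-primed 3, with adjusted p of 0.0513 to 0.151. It was also lost with median-of-ratios scaling, with quantile normalisation, with no variance trend and with only the libraries compared (0.0529 to 0.107).

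Setting each mitochondrial gene beside the cytosolic gene for the same amino acid gives 16 pairs, in which Eprs stands for both Ears2 and Pars2, and Farsa, the other subunit of the phenylalanine enzyme, stands for Fars2. Between spleen-primed and naive cells Farsb, at 0.12, changed less than Fars2, at 0.20, so the phenylalanine pair depends there on the subunit used. The cytosolic change was the larger in 12 of 16 pairs between MLN-primed and spleen-primed cells, in 15 of 16 between MLN-primed and naive cells and in 13 of 16 between spleen-primed and naive cells. These counts are on the log2(FPKM + 1) scale, which shrinks the changes of the lower mitochondrial genes, and no difference within a pair was tested. By the ratio of mean FPKM they were 11, 15 and 13, with Ears2 (1.71) above Eprs (1.64) between the primed groups. The pair for serine ran the other way in all 3 comparisons. Against naive, Sars2 was 1.42 higher in MLN-primed and 1.06 higher in spleen-primed cells, and Sars was 0.65 and 0.62 higher. Between MLN-primed and spleen-primed cells the tyrosine, threonine and alanine pairs also had the larger change in the mitochondrial gene, as did the cysteine and leucine pairs between spleen-primed and naive cells, with Lars2 subject to the limits given above.

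**Figure D5:**
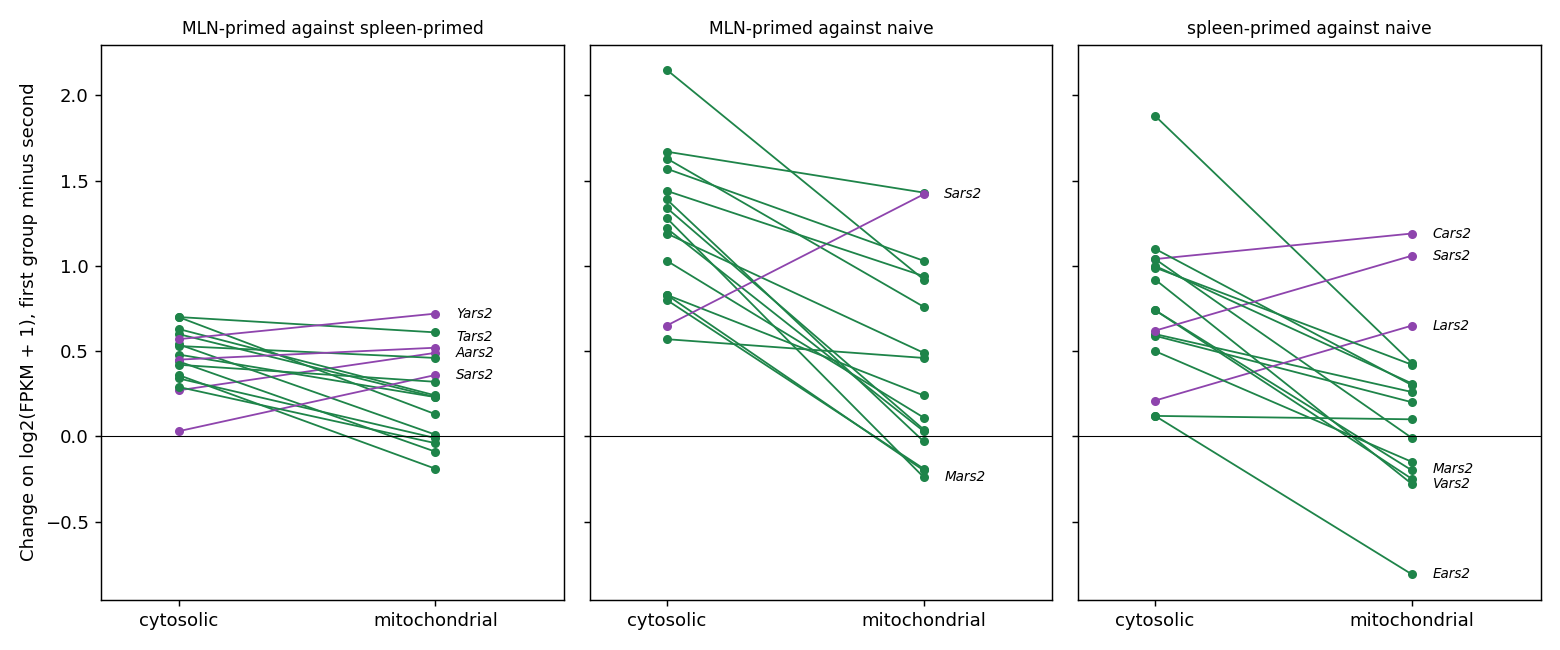
Log2(FPKM + 1) change of the cytosolic and the mitochondrial gene for the same amino acid, joined by a line, in each of the 3 comparisons; purple marks pairs with the larger change in the mitochondrial gene. The line runs down to the mitochondrial gene in 12, 15 and 13 of 16 pairs for MLN-primed against spleen-primed, MLN-primed against naive and spleen-primed against naive, and the serine pair runs up in all 3.

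In the methionine pair the genes were called in opposite directions against naive. Mars, the cytosolic enzyme that also charges the initiator tRNA, had 53.0, 45.1 and 49.8 FPKM in the MLN-primed, 34.2, 35.4 and 31.2 in the spleen-primed and 18.6, 20.2 and 20.2 in the naive libraries. These groups did not overlap. Mars rose by 1.28 ± 0.08 in MLN-primed cells (SE, limma adjusted p = 2.1e-07) and by 0.74 ± 0.08 in spleen-primed cells (limma adjusted p = 1.51e-05), while Mars2 fell in both, with the limits given above. In the valine pair, Vars had 76.8, 87.8 and 87.2 FPKM in the MLN-primed, 56.8, 62.2 and 69.2 in the spleen-primed and 27.7, 33.7 and 36.9 in the naive libraries. Vars rose by 0.92 ± 0.11 in spleen-primed cells against naive (limma adjusted p = 3.67e-05), where Vars2 fell by 0.28.

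Among cytosolic genes, the 8 in the multi-synthetase complex (Dars, Eprs, Iars, Kars, Lars, Mars, Qars and Rars) had median log2 changes of 0.53 between MLN-primed and spleen-primed cells, 1.12 between MLN-primed and naive cells and 0.61 between spleen-primed and naive cells. The 12 outside it had medians of 0.43, 1.36 and 0.96. The range within the complex against naive, 0.49 for Qars to 1.63 for Rars in MLN-primed cells, was wide beside the difference in medians.

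The 5 cytosolic genes whose windows hold the C/EBP-ATF core had a median change of 1.57 (1.19 to 2.15) in MLN-primed cells against naive, and the 8 whose windows do not had 0.93 (0.49 to 1.45). In spleen-primed cells against naive the medians were 1.0 (0.60 to 1.88) and 0.61 (0.12 to 1.10). Between MLN-primed and spleen-primed cells they were 0.45 (0.21 to 0.60) and 0.48 (-0.13 to 0.70). The ranges overlap in all 3 comparisons, and cytosolic genes with no matched window, among them Cars and Rars, are in neither set.

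Other genes of the tRNA pathway were read from lists chosen with earlier results of these data known. Counts are given for MLN-primed against spleen-primed, MLN-primed against naive and spleen-primed against naive, in that order. In the same order, 17.3%, 45.5% and 43.1% of all genes tested rose and 13.1%, 33.2% and 32.7% fell, and no difference between lists was tested. Of the 3 scaffold proteins of the complex, 2, 3 and 3 rose and 0 fell, and in the last comparison 1 rose with median-of-ratios scaling, and 1 rose and 1 fell with quantile normalisation. The scaffold Aimp2 averaged 64.5 ± 7.79 FPKM in MLN-primed, 47.0 ± 6.07 in spleen-primed and 23.1 ± 0.275 in naive cells (SD, n = 3 each), and Eef1e1 49.3 ± 6.45, 30.6 ± 2.65 and 24.8 ± 0.668. Tarsl2, a threonyl-tRNA synthetase-like gene outside the 36, rose against naive by 0.60 in MLN-primed and 0.63 in spleen-primed cells and stood at -0.03 between the primed groups, without passing.

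Of 9 mitochondrial translation factors 7, 8 and 7 rose and 0 fell. Tsfm, an elongation factor that recycles Tufm, averaged 45.1 ± 5.15, 29.2 ± 2.16 and 11.5 ± 0.286 FPKM in MLN-primed, spleen-primed and naive cells (SD, n = 3 each), and Tufm stood 1.56 and 1.07 above naive in MLN-primed and spleen-primed cells. Mrrf, which recycles mitochondrial ribosomes, rose by 0.58 in MLN-primed against spleen-primed cells. Of 3 genes for the amidotransferase that makes mitochondrial glutamine tRNA and the methionyl-tRNA formylase, 1, 2 and 2 rose and 0 fell. Qrsl1, an amidotransferase subunit, rose by 1.06 in MLN-primed and 0.74 in spleen-primed cells against naive, and the formylase Mtfmt by 0.83 and 0.49, and by 0.34 between MLN-primed and spleen-primed cells, a call lost without MLN-primed 2, MLN-primed 3, spleen-primed 1 or spleen-primed 2. Of 4 editing factors, which clear mischarged tRNA, 2, 3 and 2 rose and 0 fell, while with quantile normalisation 1 fell in the last comparison. Aarsd1 stood 1.5 and 1.04 and Dtd2 0.90 and 0.83 above naive in MLN-primed and spleen-primed cells, and Dtd1 and Aarsd1 rose by 0.62 and 0.46 between the primed groups.

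Of 22 genes for tRNA processing and export 13, 14 and 12 rose and 0, 3 and 6 fell, and with quantile normalisation 7 rose and 6 fell in the last comparison. Pop1 and Pop4, subunits of RNase P, which trims the 5′ end of tRNA, rose by 2.23 and 1.98 in MLN-primed cells and by 1.77 and 1.70 in spleen-primed cells against naive, and Rpp40, another subunit, rose by 0.72 between the primed groups. Of 36 genes for tRNA modification 20, 23 and 14 rose and 0, 6 and 11 fell, and with quantile normalisation 11 rose and 14 fell in the last comparison. The main counts of that comparison lie near the 43.1% and 32.7% of all genes that rose and fell, and show nothing particular to this list. Mettl1, which methylates guanine in many tRNAs, averaged 22.9 ± 2.34 FPKM in MLN-primed and 9.54 ± 0.170 in spleen-primed cells (SD, n = 3 each), a change of 1.18, and the pseudouridine synthase Pus7 rose by 0.94. Pus10 rose by 1.53 and Thg1l, which adds a guanine to histidine tRNA, by 1.47 in MLN-primed cells against naive. In spleen-primed cells against naive Pus10 rose by 1.05 and Pus3 fell by 1.07.

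Of 21 genes for RNA polymerase III, which transcribes tRNA genes, 6, 10 and 7 rose and 2, 5 and 8 fell. The counts against naive stand beside 45.5% and 43.1% of all genes that rose and 33.2% and 32.7% that fell, and show nothing particular to this list. The first count of genes that rose was 3 without MLN-primed 2, MLN-primed 3, spleen-primed 1 or spleen-primed 2. Polr3d, a polymerase subunit, rose by 0.69 between the primed groups. Gtf3c5, a TFIIIC subunit, stood 1.57 and 1.56 above naive in MLN-primed and spleen-primed cells. Maf1, a repressor of the polymerase, fell by 1.52 in MLN-primed cells against naive, and Bdp1, a TFIIIB subunit, fell by 1.10 in spleen-primed cells. Of 8 cytosolic elongation and termination factors 5, 4 and 3 rose and 0, 3 and 4 fell, and in so short a list the counts against naive show nothing particular either. Eif5a, which helps ribosomes through difficult stretches, averaged 1392 ± 144, 912 ± 59.5 and 373 ± 10.6 FPKM in MLN-primed, spleen-primed and naive cells (SD, n = 3 each). The release factor Etf1 rose by 1.48 in MLN-primed cells against naive and Gspt1, its partner, by 0.60 between the primed groups, while the exchange factor Eef1b2 fell by 1.06 in spleen-primed cells against naive.

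Of 14 tested genes of the GCN2 and ATF4 arm, which senses uncharged tRNA, 7, 9 and 7 rose and 1, 3 and 4 fell. In the last comparison these counts lie near the 43.1% and 32.7% of all genes that rose and fell. Log2 changes in the list ran from -0.78 to 0.98, from -1.59 to 3.89 and from -1.12 to 2.91 in the same order of comparisons. Asns, the asparagine synthetase and a classical ATF4 target, averaged 15.1 ± 2.93 FPKM in MLN-primed, 7.11 ± 0.525 in spleen-primed and 0.0769 ± 0.0575 in naive cells (SD, n = 3 each), with log2 changes of 0.98, 3.89 and 2.91. Psat1, of serine synthesis, averaged 161 ± 22.8, 111 ± 13.2 and 14.1 ± 0.910 FPKM and stood 3.42 and 2.88 above naive in MLN-primed and spleen-primed cells. Shmt2, of mitochondrial one-carbon metabolism, was 0.88 higher in MLN-primed cells than in spleen-primed ones.

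Several of these genes share sequence with others, and how strand was used in the quantification is not stated in the sources used here, so their levels are uncertain to that extent. Aars shares 1326 exonic bases on the same strand with Exosc6, and Iars matches the pseudogene Gm4849 over 1656 bases at 96.0% identity. Exons lie on opposite strands of the same bases for Iars2 and Rab3gap2 (2034 bases), Fars2 and Nrn1 (501), Vars2 and Gm20483 (465), Cars2 and Naxd (422), Nars2 and C230038L03Rik (284), Farsb and Sgpp2 (248), Cars and Gm15580 (211), Hars and Hars2 (195), Ears2 and Ubfd1 (89), Mars and Ddit3 (68) and Yars and C77080 (30).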

How the data were processed

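The data are 9 mRNA libraries of OT-I CD8+ T cells, 3 per group. The deposited values are FPKM per gene, for which the submitters' processing notes name TopHat, Cufflinks and mm10; tool versions, read filters and strand settings are not stated in the sources used here. FPKM keep no read numbers, so depth is unknown, and abundant genes can move the level of every other gene. Of 24067 rows, 131 without a symbol (0.0479% of FPKM) were left out. A table named for transcripts was identical to the gene table and was not used.

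Values were used as log2(FPKM + 1), a scale that understates changes of low genes. The 10185 genes at 1 FPKM or more in at least 3 libraries entered 1 limma-trend fit (limma 3.58.1, R 4.3.3) over all 9 libraries, with 3 two-sided contrasts, Benjamini-Hochberg adjustment over all genes and a threshold of 0.05. The fit was tested on simulated data with independent noise for each gene and library. Those data lack the deviations shared between the real libraries and their length trends, so the test does not show how these affect the calls. The members, gene lists and tests were chosen with earlier results of these data known. Named in full are, per comparison, the 6 members with the largest changes among those called with no overlap between groups, members called in the minority direction and pairs called in opposite directions; from each pathway list, the 2 largest called genes, of which some are not reported here. Sars, Qars, Gars (between the primed groups) and Lars2 were added after their values were seen.

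Replicate numbers come from the titles, which do not say what they mark. Same-numbered spleen-primed and naive libraries deviated together from their group means only weakly (correlations of 0.16, 0.116 and 0.236). No pairing was taken from the numbers in the main fit, and the number served as a block in an alternative only. Alternatives were other pseudocounts, filters, scalings and variance models, the replicate number as a block and leaving out libraries. Promoters are RefSeq's for GRCm38.p6, the assembly that mm10 names; shared sequence was searched in GENCODE transcripts with blastn 2.17.0 (at least 95% identity over at least 50 bases). Figures were drawn with matplotlib 3.10.9 in Python 3.11.15.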

Additional observations from a re-analysis of the deposited data

How the results depend on the processing

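Of the results for single genes under the alternatives, 2027 kept their direction and side of the threshold, 84 were no longer past it, 13 newly passed and 35 turned; 7 of the 35 were also no longer past it and 1 newly passed. The cause of each change was not tested, except that left-out libraries leave fewer samples. With the replicate number as a block, 18 cytosolic and 8 mitochondrial genes rose and 3 mitochondrial genes fell in spleen-primed against naive cells, and the block changed no other call. Same-numbered MLN-primed libraries correlated at 0.645, -0.24 and 0.485 with spleen-primed and 0.145, -0.241 and 0.116 with naive ones. Not every library correlated best with its own number, and MLN-primed 2 and spleen-primed 3 correlated at 0.512. Whether libraries of the same number share an animal or a day thus stays unknown.

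Leaving out 1 library gave 14 to 18 cytosolic and 4 to 8 mitochondrial genes higher in MLN-primed against spleen-primed cells, 0 to 1 mitochondrial genes lower in MLN-primed against naive cells and 1 to 3 in spleen-primed against naive cells. All genes lower between the primed groups numbered 884 without spleen-primed 2, against 1333. Mitochondrial genes lower in MLN-primed against naive cells numbered 2 with median-of-ratios scaling and 0 with quantile normalisation, with only the libraries compared, and with the length trend removed. Quantile normalisation gave 1 cytosolic gene lower and 5 mitochondrial genes higher in spleen-primed against naive cells. Removing the length trend left 1 mitochondrial gene lower there. Without spleen-primed 3 and MLN-primed 1 together, an alternative like the last one chosen after seeing the data, 1 mitochondrial gene fell between the primed groups (Lars2, -0.47, adjusted p = 0.0256). The length trend was taken from each library's deviation from the mean of all 9, so it also holds trends between groups, and the transcript length used for Mars2 is longer than its RefSeq gene. Outside the 10 most abundant genes, shares of FPKM were 0.246%, 0.190% and 0.104% for cytosolic and 0.0301%, 0.0237% and 0.0195% for mitochondrial genes without Lars2 in MLN-primed, spleen-primed and naive cells. In the 250 bases before the start, 3 cytosolic windows held the C/EBP-ATF core and 0 mitochondrial windows the E-box.

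Among the pathway lists, quantile normalisation gave 7 processing and export genes higher, 1 scaffold higher, 1 scaffold lower and 1 editing factor lower in spleen-primed against naive cells and 5 processing and export genes lower in MLN-primed against naive cells. Median-of-ratios scaling gave 1 scaffold higher in spleen-primed against naive cells. The filter of 5 FPKM left Tarsl2 untested, so 0 synthetases outside the 36 were higher against naive, and gave 1 editing factor higher in spleen-primed against naive cells and 2 amidotransferase and formylase genes higher between the primed groups; with no filter 3 polymerase III genes were lower in MLN-primed against naive cells. Without both doubted libraries, 10 polymerase III genes and 2 amidotransferase and formylase genes were higher and 1 processing and export gene was lower between the primed groups. Leaving out 1 library gave, between the primed groups, 3 to 8 polymerase III genes higher and 1 to 2 lower and 0 to 2 amidotransferase and formylase genes higher, and 3 to 5 polymerase III genes lower in MLN-primed against naive cells.

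The turned log2 changes follow. With median-of-ratios scaling, Sars (-0.02) and Mars2 (-0.04) turned between the primed groups, and Fars2 (-0.02), Nars2 (-0.07) and Vars2 (-0.08) in MLN-primed against naive cells. With quantile normalisation, Sars (-0.02) and Mars2 (-0.02) turned between the primed groups, Qars (-0.02), Fars2 (-0.03) and Lars2 (-0.16) in MLN-primed against naive cells, and Eprs (-0.19), Farsb (-0.25), Lars (-0.05), Iars2 (-0.03) and Lars2 (-0.02) in spleen-primed against naive cells. With the length trend removed, Mars2 (-0.00) turned between the primed groups, Fars2 (-0.07), Hars2 (0.05) and Mars2 (0.25) in MLN-primed against naive cells, and Hars2 (0.07), Mars2 (0.26) and Wars2 (0.02) in spleen-primed against naive cells. Without both doubted libraries, Mars2 (-0.05), Nars2 (-0.04) and Eprs (-0.02) turned in these 3 comparisons. Over the 9 fits that each left out 1 library, the genes that turned ran from -0.05 to 0.07 (Mars2) and -0.04 to 0.03 (Hars2) between the primed groups, from -0.07 to 0.09 (Nars2) and -0.10 to 0.05 (Hars2) in MLN-primed against naive cells, and from -0.02 to 0.20 (Eprs) and -0.09 to 0.06 (Hars2) in spleen-primed against naive cells.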
